A study of Homo sapiens with 3 samples.

Results

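The 10 genes described here encode EF-hand calcium-binding proteins. They were CALB1, CALB2 and SCGN of the calbindin family and S100A4, S100A6, S100A10, S100P, S100A14, S100A16 and S100A2 of the S100 family, out of 18417 genes measured by the arrays. The members were picked by gene symbol and selected on their log2 levels in the same arrays, so their differences are a description and carry no test. Each member had 1 probe set that named it alone. RNA from 3 cultures of LoVo, an established human colorectal cancer cell line, was measured on whole-transcript Affymetrix arrays (Human Gene 1.0 ST), a single array for each culture. LoVo 8R+ were irinotecan-resistant LoVo-R8 cells cultured with 8 μM irinotecan, LoVo 8R- were LoVo-R8 cells cultured without the drug, and parental LoVo were the unselected cells from which LoVo-R8 was raised by stepwise exposure from 0.1 to 8 μM. Irinotecan is a camptothecin derivative whose active form blocks DNA topoisomerase. The labels of all 3 samples carry the same note of irinotecan for 24 h ahead of RNA isolation. The sources do not settle if parental cells were given the drug, nor do they state whether LoVo-R8 is a clone or a mixed population.

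EF-hand proteins bind calcium through a helix-loop-helix motif. Calbindins carry several EF hands and serve as cytosolic calcium buffers, mainly in neurons, renal tubules and endocrine cells. S100 proteins are small and mostly dimeric, with a pair of EF hands in each chain, and when they bind calcium they expose a surface that docks onto partners such as annexins, cytoskeletal proteins and cell surface receptors. Most S100 genes lie side by side in a cluster on chromosome 1, and many are active in epithelia and in carcinomas. A level below is the RMA value of a probe set on the log2 scale, and a difference is the subtraction of such levels, so that 1 unit is a factor of 2. Levels of different genes come from different probes and are not set against each other. With 1 array per culture there was no replicate, and no value has an error or a p-value.

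The promoter windows of the S100A14 and S100A16 neighbours, which were both lower in the resistant cells, are shown with that of S100A10, which was bright on all 3 arrays and slightly higher in the resistant cells. The sequences are from RefSeq (GRCh38.p14) and run from 250 bases before a transcription start to 50 bases after it, 5′ to 3′ on the minus strand, which is the gene's strand for all of these genes. Capitals mark CAGGTG, an E-box that ZEB, Snail and E-protein factors can bind, searched as CAGGTG and as CACCTG, its reverse complement. S100A16 has a pair of annotated starts and is shown at both.
S100A14, chr1:153616276-153616575: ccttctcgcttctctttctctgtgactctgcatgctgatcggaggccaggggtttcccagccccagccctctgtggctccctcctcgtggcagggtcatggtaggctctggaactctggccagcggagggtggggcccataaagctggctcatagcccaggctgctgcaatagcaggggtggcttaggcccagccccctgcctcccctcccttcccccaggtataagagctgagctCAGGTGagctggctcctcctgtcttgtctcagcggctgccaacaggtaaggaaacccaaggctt
S100A16, upstream start, chr1:153613088-153613387: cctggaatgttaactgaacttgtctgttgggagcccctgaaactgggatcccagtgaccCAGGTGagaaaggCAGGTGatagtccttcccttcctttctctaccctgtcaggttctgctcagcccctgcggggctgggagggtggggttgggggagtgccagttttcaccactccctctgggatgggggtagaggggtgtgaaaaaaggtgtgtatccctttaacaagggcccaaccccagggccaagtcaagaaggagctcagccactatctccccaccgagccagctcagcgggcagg
S100A16, downstream start, chr1:153609306-153609605: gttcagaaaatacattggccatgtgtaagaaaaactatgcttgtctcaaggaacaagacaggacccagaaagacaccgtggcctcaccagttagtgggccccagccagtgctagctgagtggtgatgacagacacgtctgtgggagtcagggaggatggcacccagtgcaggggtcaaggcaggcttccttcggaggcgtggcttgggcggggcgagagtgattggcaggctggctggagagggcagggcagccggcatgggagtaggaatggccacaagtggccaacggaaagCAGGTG
S100A10, chr1:151993810-151994109: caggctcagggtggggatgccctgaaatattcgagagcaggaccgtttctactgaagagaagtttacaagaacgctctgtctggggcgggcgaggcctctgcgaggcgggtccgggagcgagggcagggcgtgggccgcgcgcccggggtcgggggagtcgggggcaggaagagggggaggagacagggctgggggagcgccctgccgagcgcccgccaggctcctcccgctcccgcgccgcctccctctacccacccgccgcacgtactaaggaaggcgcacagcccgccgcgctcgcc

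The E-box letters began 14 bases before the start of S100A14. In S100A16 they began 191 and 178 bases before the upstream start and 44 bases after the downstream one. The S100A10 window held none. Of all 35116 promoter windows of this length, 20.6% held the letters, and of 10 windows for 8 members, 6 did, in 5 genes (S100A2, S100A4, S100A14, S100A16 and S100P). A match is a run of letters and not a measured binding site, and it was found in S100A2, S100A4 and S100P, whose levels were within 2-fold of parental LoVo. The promoters of CALB1 and CALB2 were not analysed here. The other S100 windows are described by counts alone. In the whole S100 family and SCGN, 14 of 27 windows held the letters, with overlapping windows of 1 gene counted separately.

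CALB1 and S100A14 were the members that differed most, and both were lower in the resistant cells. At a limit of 2-fold, 2 of 10 members were lower and 0 higher in LoVo 8R+ against parental LoVo, beside 2.30% lower and 2.25% higher among all genes. In LoVo 8R- the same genes, CALB1 and S100A14, were the 2 lower members and 0 were higher, beside 2.78% lower and 1.64% higher among all genes. Between LoVo 8R+ and LoVo 8R- no member reached 2-fold, where LoVo 8R+ had 0.527% of all genes higher and 0.114% lower. These counts follow from the choice of members, and nothing is read from them. Both comparisons with parental LoVo share the single parental array, so a deviation of that array enters both. The arrays measure RNA from whole cultures, in which fewer cells with a transcript and less of it per cell cannot be told apart.

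**Figure D1:**
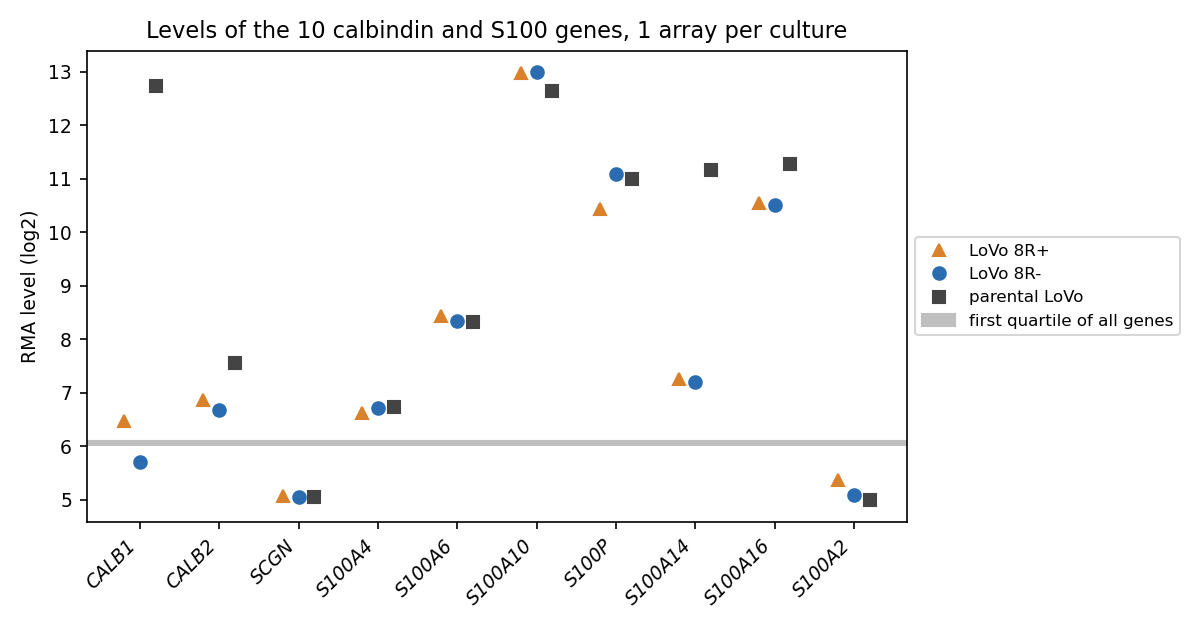
RMA log2 level (vertical axis) of the 10 calbindin and S100 genes in LoVo 8R+ (triangles), LoVo 8R- (circles) and parental LoVo (squares), 1 array each, with a grey band at the first quartile of all genes (6.03 to 6.10 over the arrays). CALB1 and S100A14 lie at 12.73 and 11.17 in parental LoVo, far above both LoVo-R8 arrays, while SCGN and S100A2 lie below the band on all arrays.

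CALB1 encodes the calbindin that buffers calcium in Purkinje neurons and the distal renal tubule. Its level was 6.47 in LoVo 8R+, 5.72 in LoVo 8R- and 12.73 in parental LoVo. The difference from parental LoVo was -6.26 on the LoVo 8R+ array and -7.02 on that of LoVo 8R-, which made CALB1 the lowest of all 18417 genes on both arrays. In linear terms the parental signal was 76.7 times that of LoVo 8R+ and 130 times that of LoVo 8R-. The LoVo 8R- level was below the first quartile of that array (6.10), where background limits the measured size of the difference. Background may also limit the LoVo 8R+ difference, since the first quartile is not a limit of detection. In LoVo 8R+ CALB1 was 0.76 above LoVo 8R-, and 98.2% of all genes had an absolute difference between these arrays no larger than that. The same dim LoVo 8R- level enters this difference, so background limits its size as well. Among 14196 genes at or above the first quartile on at least 1 array, the 3 genes nearest to CALB1 in both differences from parental LoVo were ALDH1L2, a mitochondrial folate enzyme gene, FST, an activin antagonist gene, and CD200, which encodes a surface glycoprotein. They lay 2.41, 2.54 and 2.67 log2 units away. ALDH1L2 and CD200 were below the first quartile on both LoVo-R8 arrays, as CALB1 was in LoVo 8R-, so background limits these differences and the distances made from them. ALDH1L2 had -4.85 on the LoVo 8R+ array and -5.06 on that of LoVo 8R-, FST had -4.91 and -4.86, and CD200 had -4.70 and -4.85.

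CALB1 lies on chromosome 8, and the measured genes around it did not share its difference. Among its 10 nearest measured neighbours, 5 on each side, the lowest difference was -0.31 in LoVo 8R+ and -0.16 in LoVo 8R-. At 2-fold 0 neighbours were lower on either LoVo-R8 array, beside 2.30% of all genes in LoVo 8R+ and 2.78% in LoVo 8R-. At least 2-fold above parental LoVo were 1 neighbour in LoVo 8R+ and 2 neighbours in LoVo 8R-, beside 2.25% and 1.64% of all genes. With 10 neighbours, nothing is read from these counts. The median difference of these neighbours was 0.06 on the LoVo 8R+ array and 0.12 on that of LoVo 8R-.

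CALB2, which encodes calretinin, a calcium buffer of neurons and mesothelium, was lower by less than 2-fold. Its level was 6.87 in LoVo 8R+, 6.69 in LoVo 8R- and 7.56 in parental LoVo. The differences of -0.69 and -0.87 from parental LoVo were larger in size than those of 90.2% and 93.8% of all genes. CALB2 passed the lower limit of 1.5-fold on both LoVo-R8 arrays. SCGN encodes secretagogin, a calcium sensor of neuroendocrine cells. Its level was 5.07 in LoVo 8R+, 5.06 in LoVo 8R- and 5.06 in parental LoVo, below the first quartile of every array.

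S100A14, which encodes an S100 protein of epithelia, was the S100 gene with the largest difference. Its level was 7.26 in LoVo 8R+, 7.21 in LoVo 8R- and 11.17 in parental LoVo. Both LoVo-R8 arrays lay close together and far below parental LoVo, with differences of -3.91 on the LoVo 8R+ array and -3.96 on that of LoVo 8R-. The parental signal was 15.04 times that of LoVo 8R+ and 15.5 times that of LoVo 8R-. Counted from the lowest difference up, S100A14 ranked 11 on the LoVo 8R+ array and 14 on that of LoVo 8R- among all genes. The difference between LoVo 8R+ and LoVo 8R- was 0.05. On every array the S100A14 level was above the first quartile, while that of CALB1 in LoVo 8R- was not.

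S100A16, the neighbour of S100A14 on chromosome 1, encodes a widely expressed S100 protein. Its level was 10.55 in LoVo 8R+, 10.52 in LoVo 8R- and 11.28 in parental LoVo. The differences from parental LoVo were -0.73 and -0.76, or 39.5% and 41.1% below the parental signal, short of 2-fold. In size they exceeded those of 91.0% and 92.0% of all genes. The LoVo-R8 arrays differed from each other by 0.04.

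In the gene order of chromosome 1, S100A14 lies between S100A16 and S100A13. The run from S100A9 to S100A1 holds 15 measured genes, and all 15 are of the S100 family. S100A16, S100A14, S100A13 and S100A1 are the last 4 of them, and each was below parental LoVo on both LoVo-R8 arrays, though these 4 were grouped with their values in view. S100A3 and S100A4, outside that group, were slightly below as well (-0.13 and -0.03 for S100A3, -0.11 and -0.02 for S100A4), and S100A7 had -0.40 on the LoVo 8R+ array and 0.08 on that of LoVo 8R-. S100A13, whose protein helps to export FGF1, had 7.34 in LoVo 8R+, 7.66 in LoVo 8R- and 8.19 in parental LoVo, with differences of -0.86 and -0.53. S100A1, best known from heart muscle, had 5.30 in LoVo 8R+, 5.50 in LoVo 8R- and 5.78 in parental LoVo, all below the first quartile. S100A13 and S100A1 overlap in RefSeq on opposite strands, and whether probes in the shared stretch affect their values was not checked. The 5 genes before S100A16 (S100A2 to S100A6) had differences between -0.13 and 0.38 in LoVo 8R+ and between -0.03 and 0.10 in LoVo 8R-. CHTOP, the next measured gene after S100A1, had -0.52 on the LoVo 8R+ array and -0.58 on that of LoVo 8R-, and SNAPIN after it had 0.05 and -0.02. CHTOP and SNAPIN were picked out with their values in view. Among the genes of this stretch S100A14 was the only one past 2-fold.

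**Figure D2:**
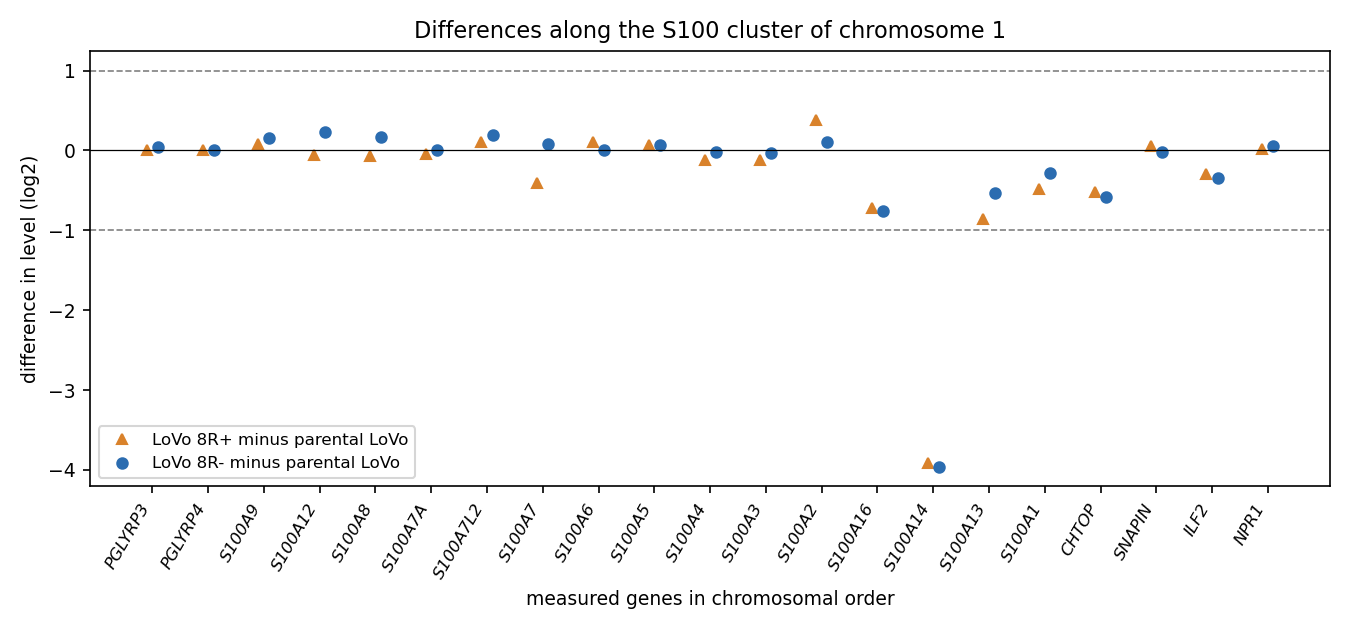
Log2 difference from parental LoVo (vertical axis) in LoVo 8R+ (triangles) and LoVo 8R- (circles) for consecutive measured genes of chromosome 1 in their RefSeq order (horizontal axis, not to distance), with dashed lines at 2-fold. S100A14 lies at -3.91 and -3.96, its neighbours S100A16 and S100A13 lie between -0.86 and -0.53, and the genes from S100A2 to S100A6 lie near 0.

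S100P showed the clearest difference between the LoVo-R8 cultures among the S100 genes. Its protein binds ezrin and the receptor AGER and is made by many colon and pancreatic carcinomas. The S100P level was 10.45 in LoVo 8R+, 11.09 in LoVo 8R- and 10.99 in parental LoVo. LoVo 8R+ was thus the low array, at -0.64 from LoVo 8R- and -0.54 from parental LoVo, and LoVo 8R- was 0.10 above parental LoVo. In size, the difference between LoVo 8R+ and LoVo 8R- exceeded that of 96.9% of all genes, but at 35.8% below the LoVo 8R- signal it was short of 2-fold. Counted from the lowest difference up, S100P ranked 148 of 18417 in LoVo 8R+ against LoVo 8R-.

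S100A10 encodes the annexin A2 partner that, unlike most of the family, does not need calcium to act. Its level was 12.99 in LoVo 8R+, 12.996 in LoVo 8R- and 12.65 in parental LoVo, near the top of each array. It was higher by 0.34 in LoVo 8R+ and by 0.35 in LoVo 8R-, or 1.27-fold on each array, and 73.5% and 72.8% of all genes had a difference of that size or smaller. Among the 10 members S100A10 had the highest mean difference from parental LoVo. The 3 genes nearest to it in both differences, EVA1C, CRYZL1 and LTBP2, each lay about 0.01 away. S100A11, the next S100 gene on the chromosome, had 12.21 in LoVo 8R+, 12.07 in LoVo 8R- and 11.61 in parental LoVo, with differences of 0.60 and 0.47. S100A11 has several processed pseudogenes that its probes may also match, so its value is uncertain.

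S100A4, S100A6 and S100A2 were within 1.5-fold of parental LoVo on both LoVo-R8 arrays. S100A4, whose protein binds non-muscle myosin and is linked to cell motility and metastasis, had 6.62 in LoVo 8R+, 6.71 in LoVo 8R- and 6.73 in parental LoVo. S100A6, which encodes calcyclin, had 8.43 in LoVo 8R+, 8.34 in LoVo 8R- and 8.33 in parental LoVo. S100A2, a p53-responsive gene of basal epithelia, had 5.38 in LoVo 8R+, 5.10 in LoVo 8R- and 5.00 in parental LoVo, below the first quartile of each array. The differences of S100A4 from parental LoVo were -0.11 and -0.02, and those of S100A6 were 0.10 and 0.01. The S100A2 differences were 0.38 on the LoVo 8R+ array and 0.10 on that of LoVo 8R-, at levels where background limits their size.

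The other 14 S100 genes gave no further gene past 2-fold. Their differences ran from -0.86 to 0.60 in LoVo 8R+ and from -0.53 to 0.47 in LoVo 8R-, with medians of -0.02 and 0.06. Of these genes, 10 were below the first quartile on all 3 arrays, among them S100A8 and S100A12, which are made mainly by neutrophils and monocytes, S100B of glia and melanocytes, and S100G, the intestinal vitamin D-dependent calbindin. S100A8 had 4.39 in LoVo 8R+, 4.61 in LoVo 8R- and 4.45 in parental LoVo. S100G had the same value, 3.87, on all 3 arrays. S100A9, the partner of S100A8, had 6.22 in LoVo 8R+, 6.29 in LoVo 8R- and 6.14 in parental LoVo. S100A7 and S100A7A are close paralogs whose probes may share sequence, so their values are uncertain. Over all 21 S100 genes the median difference was -0.05 on the LoVo 8R+ array and 0.05 on that of LoVo 8R-, where the median of all genes was 0.00 on both arrays.

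**Figure D3:**
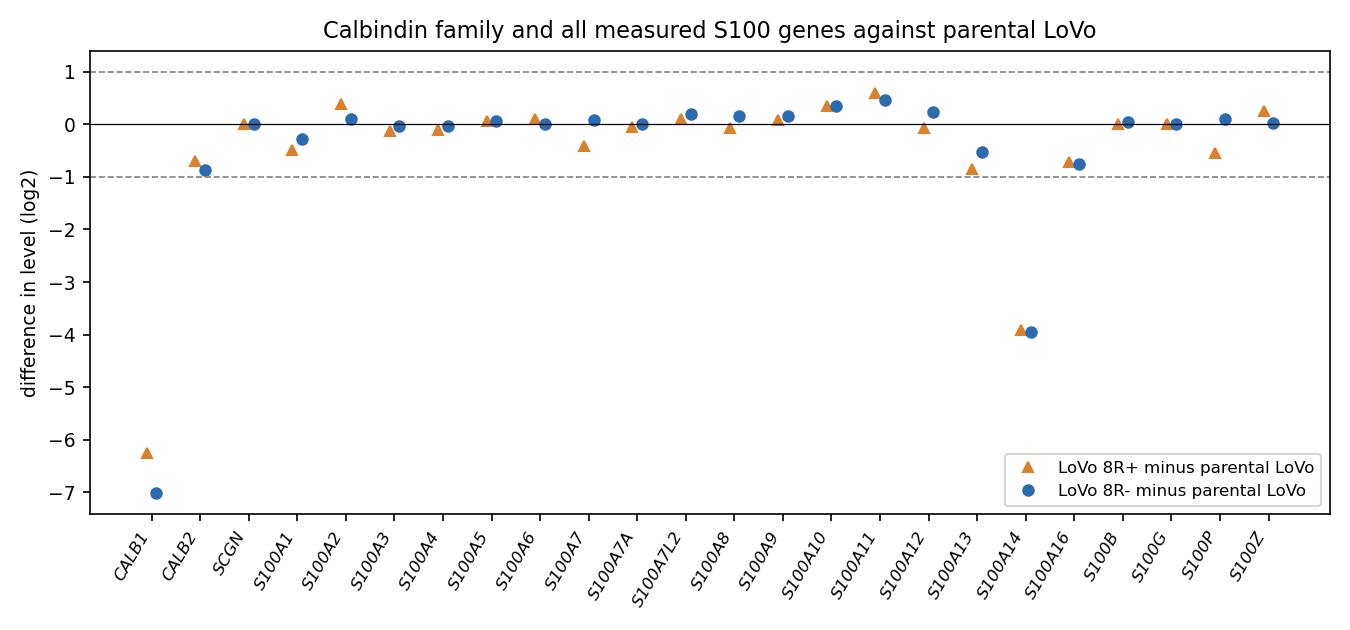
Log2 difference from parental LoVo (vertical axis) in LoVo 8R+ (triangles) and LoVo 8R- (circles) for the 3 calbindin family genes and all 21 measured S100 genes, with dashed lines at 2-fold. CALB1 (-6.26 and -7.02) and S100A14 (-3.91 and -3.96) are the only genes below the lower line, and no gene is above the upper one.

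The other EF-hand genes were counted by list at the same 2-fold limit, which 2.25% of all genes passed upward and 2.30% downward in LoVo 8R+, and 1.64% upward and 2.78% downward in LoVo 8R-. With lists this short, a single gene moves a share by several percent, and nothing particular to a list is read from its count. Of 26 measured neuronal calcium sensors and their relatives, none was higher, while 1 was lower in LoVo 8R+ and 2 were lower in LoVo 8R-. TESC, which encodes tescalcin, had 7.94 in LoVo 8R+, 7.44 in LoVo 8R- and 9.08 in parental LoVo, with differences of -1.13 and -1.63. CIB2, a calcium and integrin binding protein gene, had differences of -0.84 and -1.56. KCNIP3 had -0.67 and -0.36, and CIB1 -0.21 and -0.57. Of 7 penta-EF-hand genes, GCA, which encodes grancalcin, was the 1 higher in LoVo 8R+. The GCA level was 8.71 in LoVo 8R+, 8.20 in LoVo 8R- and 7.20 in parental LoVo, with a difference of 1.51 in LoVo 8R+ and 0.99, just short of 2-fold, in LoVo 8R-. CAPNS1, the small calpain subunit gene, had 0.63 and 0.62, PEF1 -0.44 and -0.51, and CAPN1 -0.19 and -0.35.

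Of 12 EF-hand genes of the secretory pathway, 0 were past 2-fold in LoVo 8R+ and 2 were lower in LoVo 8R-, where 2.78% of all genes were lower. The median difference of this list was -0.21 and -0.19, beside 0.00 for all genes on both arrays. NUCB2, a nucleobindin gene, had differences of -0.54 on the LoVo 8R+ array and -1.15 on that of LoVo 8R-, and CALU, which encodes calumenin, had -0.24 and -1.13. RCN2 had -0.39 and -0.85, and RCN1 -0.75 and -0.47. Of 5 measured genes among calmodulins, parvalbumin and oncomodulins, 0 were past 2-fold, and the largest differences were those of CALML6 (0.25 and 0.24), CALML5 (0.12 and 0.20), CALML3 (-0.08 and 0.16) and CALML4 (0.15 and 0.02). Of 6 S100 fused-type genes of the skin barrier, 0 were past 2-fold, with FLG at 0.24 and 0.55, FLG2 at -0.28 and 0.14, TCHH at -0.01 and 0.15, and RPTN at -0.11 and -0.005. FLG2 and RPTN were below the first quartile on every array, and FLG in LoVo 8R+ and parental LoVo.

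Of 14 measured genes for annexins and other S100 partners, 1 was past 2-fold in LoVo 8R+, where it was higher, as were 2.25% of all genes, and 0 were past it in LoVo 8R-. The median difference of the list was 0.00 and -0.09. TLR4, a receptor for S100A8 and S100A9, was the higher gene, with 7.26 in LoVo 8R+, 6.48 in LoVo 8R- and 5.84 in parental LoVo, where it was below the first quartile. Its differences were 1.42 and 0.64. ANXA6, a membrane-binding annexin gene, had 10.18 in LoVo 8R+, 9.18 in LoVo 8R- and 9.24 in parental LoVo, so that LoVo 8R+ was the high array. ANXA5 had -0.58 and -0.73 from parental LoVo, and the scaffold gene IQGAP1 -0.47 and -0.57. ANXA2, the partner of S100A10, had -0.32 and -0.37, and was picked out with its value in view.

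Among 27 measured genes of calcium entry, release and pumping, LoVo 8R+ had 0 higher and 1 lower, while LoVo 8R- had 1 higher and 2 lower. Among all genes, LoVo 8R+ had 2.25% higher and 2.30% lower, while LoVo 8R- had 1.64% higher and 2.78% lower. ITPR2, which encodes an inositol trisphosphate receptor, had 7.24 in LoVo 8R+, 5.87 in LoVo 8R- and 7.76 in parental LoVo. LoVo 8R- was the low array for ITPR2, at -1.90 from parental LoVo, and LoVo 8R+ was 1.38 above LoVo 8R-. That LoVo 8R- level was below the first quartile, where background limits the size of both differences. ATP2C2, a calcium pump gene of the secretory pathway, was lower on both arrays (-1.11 and -1.02). The store-operated channel gene ORAI3 had 0.91 and 1.09, and STIM1, whose protein senses calcium in the endoplasmic reticulum, 0.65 and 0.78. Of 5 measured genes of the vitamin D receptor axis, which drives calbindin genes in intestine and kidney, 0 were past 2-fold. VDR had 8.32 in LoVo 8R+, 7.54 in LoVo 8R- and 8.22 in parental LoVo, RXRA had differences of -0.18 and -0.24, CYP27B1 0.07 and 0.27, and CYP24A1 0.10 and 0.22 at levels below the first quartile.

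**Figure D4:**
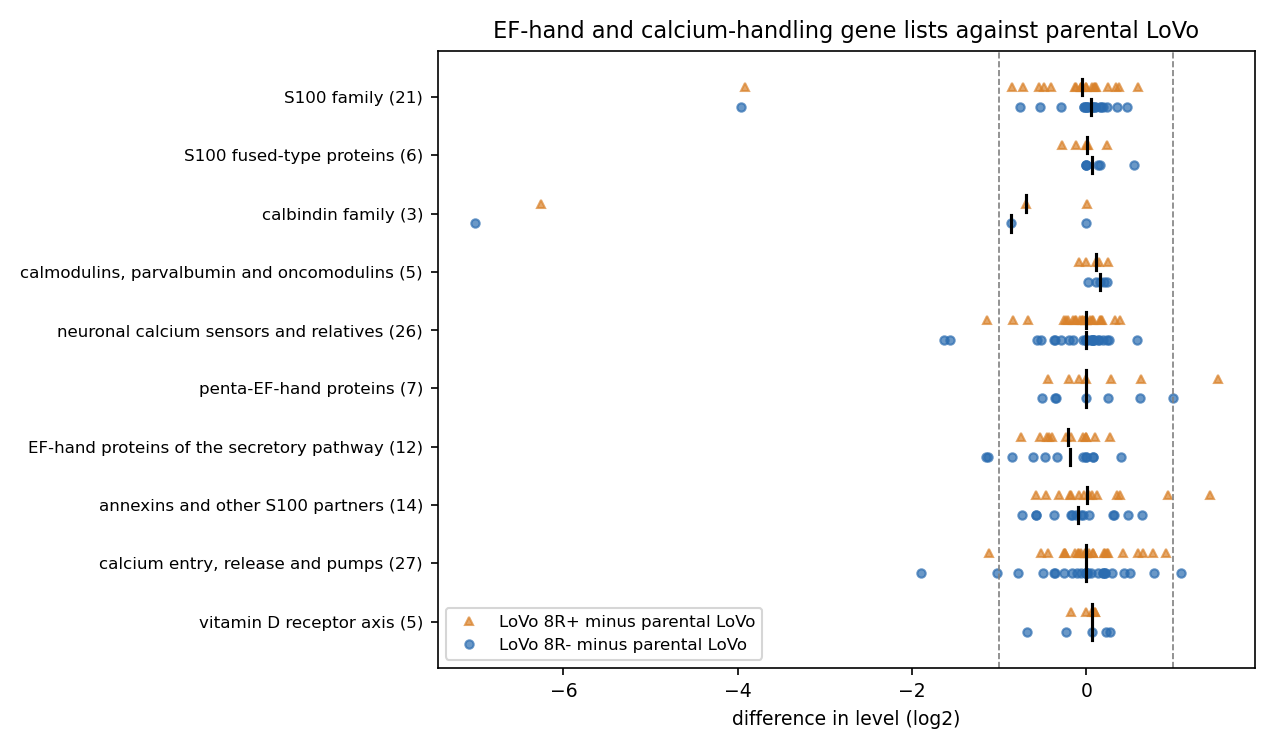
Log2 difference from parental LoVo (horizontal axis) of each measured gene of 10 EF-hand and calcium-handling lists, with the number of genes in brackets, in LoVo 8R+ (triangles) and LoVo 8R- (circles). Black bars are medians and dashed lines mark 2-fold. Most genes lie between the lines, and CALB1 and S100A14 lie farthest to the left.

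Epithelial markers were measured on all 3 arrays, and some of them differed between the cultures. Of 12 epithelial and intestinal markers, 0 were below the first quartile on any array, and their levels ran from 6.13 to 13.01 in LoVo 8R+, from 6.13 to 12.95 in LoVo 8R- and from 6.40 to 13.27 in parental LoVo. Past the 2-fold limit, 3 of these markers were lower and 1 was higher, on LoVo 8R+ as on LoVo 8R- arrays, beside 2.30% and 2.78% lower and 2.25% and 1.64% higher among all genes. CDH1 had differences of -2.26 on the LoVo 8R+ array and -3.06 on that of LoVo 8R-, CEACAM5 -2.11 and -2.37, LGALS4 -2.01 and -2.27, and the higher marker CDH17 1.13 and 1.07. CDH1, CEACAM5 and LGALS4 were lower alongside CALB1 and S100A14, and their part in those differences was not tested. The mean level of the epithelial list was 10.03 in LoVo 8R+, 9.82 in LoVo 8R- and 10.52 in parental LoVo. No leukocyte, stromal, endothelial or neural marker reached 2-fold in any comparison. PTPRC, the pan-leukocyte marker, was at 4.12 on every array, far below the first quartile. On each array 3 of 5 leukocyte markers were below it. LYZ (7.99 in LoVo 8R+, 7.55 in LoVo 8R- and 7.59 in parental LoVo) and CD14 (6.06, 6.29 and 6.08) were above it. Of 6 stromal and endothelial markers 3 were below it on each array, and of 3 neural markers 0 were. The mean level of 5 leukocyte markers was 5.65 in LoVo 8R+, 5.69 in LoVo 8R- and 5.56 in parental LoVo.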

How the data were processed

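The authors isolated total RNA from the cultures, hybridized 300 ng of each to Affymetrix Human Gene 1.0 ST arrays, and deposited log2 levels made by the robust multichip average (RMA) method, which corrects background, normalizes quantiles across the arrays and summarizes each probe set. Expression Console 1.1 (Affymetrix) is listed in the submitters' processing notes, and the study's methods name R and Bioconductor. The table holds 33297 probe sets on 3 arrays, whose small number limits precision. No detection calls were used here.

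Of the probe sets, 19460 named 1 gene by the platform annotation, 1754 named several and 12083 named none. A gene was represented by its brightest single-gene probe set. Differences were subtractions of log2 levels, counted at 2-fold, with no test. Quartiles and percentiles are over the 18417 genes. Gene order and promoters came from RefSeq (GRCh38.p14), matched by Entrez identifier or symbol.

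The text names all members, every other S100 gene past 2-fold, up to 4 genes with the largest mean absolute difference from each other list, the 3 genes nearest to CALB1 and to the member with the highest mean difference, and S100 genes next to a member. Members and lists were chosen with earlier results of these data known. Other genes named, including the remaining S100 genes given as examples, were picked with their values in view. Alternatives were 1.5-fold and 3-fold limits, median centring, loess (span 0.3, 3 iterations), repeated quantile normalization, the mean of a gene's probe sets, and filters at the 25th and 50th percentile. The counting was tested on simulated data. Python 3.11.15, numpy 2.4.6, pandas 2.3.3, statsmodels 0.14.6 and matplotlib 3.10.9 were used.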

Additional observations from a re-analysis of the deposited data

How the results depend on the processing

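With a limit of 1.5-fold in place of 2-fold, 4 members passed in LoVo 8R+ and 4 in LoVo 8R- against parental LoVo, and 2 (CALB1 and S100P) in LoVo 8R+ against LoVo 8R-. Of the S100 family, 4 genes passed that limit in LoVo 8R+, 2 in LoVo 8R- and 1 in LoVo 8R+ against LoVo 8R-. The share of all genes past 1.5-fold was not counted, so nothing is read from these 1.5-fold counts. At 3-fold, after each normalization and with the mean of a gene's probe sets, the counts of members and of S100 genes equalled those at 2-fold. Both filters on dim genes left these counts unchanged as well. They kept a gene bright on either array compared, leaving 8 and 7 of 10 members against parental LoVo. At the 50th percentile CALB1 and S100A14 were kept through the parental array alone, so that filter could not change the counts against parental LoVo. The lower filter, at the first quartile, also kept CALB1 in LoVo 8R- against parental LoVo through the parental array alone. CALB1 and S100A14 were bright on the parental array, so the lower filter could not remove them from those counts either. Between LoVo 8R+ and LoVo 8R- the filters left 8 and 4 members, without CALB1 and S100A14 at the 50th percentile. Each member had a single probe set, so averaging probe sets changed no value of a member. For single members, all 120 alternative values stayed on their side of 2-fold and moved by at most 0.07. Changes of sign occurred for 2 differences near 0 between LoVo 8R+ and LoVo 8R-, those of S100A10 (0.01 with median centring) and S100A16 (-0.01 with repeated quantile normalization). No paired analysis was possible because each culture has 1 array. Signal near background limits the size of both CALB1 differences that involve LoVo 8R-. It may also limit the differences of CALB1 in LoVo 8R+ and of S100A14 from parental LoVo. It also limits every value of SCGN and S100A2, and those of other genes below the first quartile, such as ITPR2 in LoVo 8R-.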
